A study of Mus musculus with 6 samples.

Results

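Ly6a, Ly6c1, Ly6e, Ly6c2, Ifitm1, Ifitm2 and Ifitm3 encode small membrane proteins of the Ly6 and Ifitm families, and were followed through developing mouse lung endothelium and across the cell classes of the E18.5 lung. The 7 genes were listed by name and found among the 31053 genes of all 6 count tables. The unit is the droplet-based UMI count, given as the summed UMIs of a gene over those of all genes in a cell population, scaled to CPM. Because reads come from the 3′ end of each transcript, levels were compared between populations for 1 gene at a time and not between genes.

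The sorted series held 4 libraries from Cxcl12DsRed/+ lungs at 4 ages, the embryonic days E13.5, E15.5 and E18.5 and postnatal day P8, each from pooled lungs and enriched for reporter-positive cells after negative selection for CD45 and EpCAM. The remaining 2 libraries were whole E18.5 lungs, labelled as a heterozygous control (Cxcl12DsRed/+) and a homozygous null (Cxcl12DsRed/DsRed). Every group carried at least 1 DsRed knock-in allele, so no library was wild type. Each condition had 1 library, so that age, genotype and library cannot be told apart, no p-value or SD is given, and intervals are exact 95% intervals that cover counting error only. The gene targeted by the knock-in went against the whole-lung labels. Cxcl12 measured 1.20 CPM (101 UMIs) in the library labelled control and 191 CPM in the library labelled null, beside 264 to 1158 CPM in the sorted libraries. The names that the deposited whole-lung data carry also give the opposite genotypes. Directions between these libraries are therefore given by label only.

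The libraries kept 8268 to 12726 cells and held 63746333 to 117522172 UMIs. Endothelial cells (ECs) were cells with at least 2 UMIs of Pecam1 and Cdh5 together, and numbered 210, 9453, 9119 and 8259 over the 4 ages, and 2022 and 3042 in the libraries labelled control and null. All 8 broad endothelial markers were above 10 CPM in the ECs of every library. They include Pecam1 and Cdh5, whose level is set by this rule. In cells without a UMI of Pecam1 or Cdh5, 2 to 6 of the 8 also passed 10 CPM. For the time course the authors describe a sort for CD31, the protein of Pecam1, as well as for the reporter. They also describe collecting a CD31-negative, mesenchymal-enriched fraction, and the labels give only a Cxcl12+ sort. The sorted E13.5 library was mostly non-endothelial. Its 12361 cells without a UMI of Pecam1 or Cdh5 had 5020 CPM of 8 mesenchymal markers, and its 210 ECs still had 1060 CPM of them, against 445, 180 and 55.4 CPM at the later ages. The 2 whole-lung libraries shared 140 cell barcodes and other pairs 20 to 54, and leaving these cells out moved no count of members between ages or gates. In whole lungs it took the count of members for endothelial against immune cells from 6 to 5, without Ly6e.

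Ly6 proteins are short, cysteine-rich proteins that fold into a compact domain of finger-like loops and are mostly held on the outer membrane by a lipid anchor. Ly6a, also called Sca-1, marks blood stem cells and many vascular cells of the mouse, Ly6c1 and Ly6c2 encode the Ly6C antigens, of which the second is widely used to mark inflammatory monocytes, and Ly6e restrains the entry or fusion of several viruses. Ifitm proteins sit in the membranes of the cell surface and of endosomes, and hinder fusion of enveloped viruses. Many genes of both families respond to interferon, which acts through receptors, Jak kinases and Stat transcription factors.

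On GRCm38 the 4 Ly6 genes lay within 156920 bases of chromosome 15, with Ly6e at chr15:74955051-74959905 (plus strand), Ly6a at chr15:74994877-74998031, Ly6c1 at chr15:75044018-75048830 and Ly6c2 at chr15:75108158-75111970 (all minus). The Ifitm genes lay within 55934 bases of chromosome 7, with Ifitm2 at chr7:140954837-140955987 (minus), Ifitm1 at chr7:140967221-140969825 (plus) and Ifitm3 at chr7:141009586-141010770 (minus). Ifitm2 overlapped the predicted gene Gm45717 on its own strand. The promoters, taken as 250 bases before the RefSeq start on GRCm38.p6, were present for 5 of 7 members. The pair Ly6c1 and Ly6c2 is shown because the transcripts were 97.6% identical over 822 aligned bases while the genes were expressed in different classes of cells, and Ifitm2 and Ifitm3 because they lie in the same gene cluster and differed in their course over age. Sequences run 5′ to 3′ on the gene's own strand, and capitals mark the motifs searched on either strand, namely GAAA followed after any 2 bases by GAAA (an interferon-response type element), TTCNNNGAA (a Stat-type element), TATAAA and CCAAT.
Ly6c1: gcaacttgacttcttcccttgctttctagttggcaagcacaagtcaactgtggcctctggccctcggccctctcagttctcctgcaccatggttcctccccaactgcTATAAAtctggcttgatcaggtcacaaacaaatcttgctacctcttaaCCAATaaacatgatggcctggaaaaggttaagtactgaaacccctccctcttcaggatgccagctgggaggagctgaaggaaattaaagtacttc
Ly6c2: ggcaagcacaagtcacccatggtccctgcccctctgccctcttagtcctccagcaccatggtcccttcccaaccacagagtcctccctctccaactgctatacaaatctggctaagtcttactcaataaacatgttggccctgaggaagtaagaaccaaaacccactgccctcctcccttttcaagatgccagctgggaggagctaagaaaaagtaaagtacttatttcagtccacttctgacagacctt
Ifitm2: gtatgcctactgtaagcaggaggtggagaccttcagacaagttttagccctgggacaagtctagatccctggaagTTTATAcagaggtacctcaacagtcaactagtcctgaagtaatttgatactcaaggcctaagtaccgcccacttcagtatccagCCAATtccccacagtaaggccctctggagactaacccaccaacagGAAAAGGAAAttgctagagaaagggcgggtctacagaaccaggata
Ifitm3: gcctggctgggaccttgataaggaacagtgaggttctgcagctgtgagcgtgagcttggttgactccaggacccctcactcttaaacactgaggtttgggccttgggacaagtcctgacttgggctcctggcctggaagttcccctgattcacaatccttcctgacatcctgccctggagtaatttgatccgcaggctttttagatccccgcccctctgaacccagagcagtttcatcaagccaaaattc
These windows are chr15:75048838-75049087, chr15:75111972-75112221, chr7:140955962-140956211 and chr7:141010745-141010994, in the same order, all on the minus strand. The Ly6c1 and Ly6c2 windows were identical at 75.9% of 216 aligned bases. The Ly6c1 window held TATAAA at 143 to 138 bases and CCAAT at 95 to 91 bases before the start, and the Ly6c2 window held none of the 4 motifs. The Ifitm2 window held GAAAAGGAAA at 46 to 37 bases before the start, along with CCAAT and a TATAAA on the other strand, and neither the Ifitm3 nor the Ifitm1 window held any. The Ifitm1 window, chr7:140967826-140968075, lay inside the gene span given above. The bases before the start of that span were not searched. Over 32851 promoter windows of the same length, the interferon-response type element was found in 2.98%, TTCNNNGAA in 7.02%, TATAAA in 12.4% and CCAAT in 33.8%. In the last 300 bases of their transcripts, 27.6% of the 60-base stretches of Ly6c1 were also found in Ly6a or Ly6c2, 14.8% of those of Ly6c2 in Ly6c1, 3.42% of those of Ly6a in Ly6c1 and 24.5% of those of Ifitm2 in predicted genes, so that counts of these 4 genes are uncertain. These are shares of sequence stretches, and how many UMIs they touch was not measured. Ly6e, Ifitm1 and Ifitm3 shared none.

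In ECs of the sorted lungs, the 3 Ly6 genes Ly6a, Ly6c1 and Ly6e and the gene Ifitm3 were lower at the 2 early ages than from E18.5 on. Ly6a started from 4.44 CPM at E13.5 (8 UMIs, interval 1.92 to 8.75). It measured 37.6 CPM (36.4 to 38.9) in the E15.5 library, 285 CPM (281 to 289) in the E18.5 library and 587 CPM (581 to 593) in the P8 library. No pair of ages overlapped in its interval, and Ly6a was the member with the longest climb. Ly6c1 measured 3.89, 31.7, 264 and 266 CPM over the same ages. Its intervals at E18.5 (260 to 268) and P8 (262 to 270) overlapped, so that no difference between these ages was detectable at this depth. Ly6e measured 45.5, 140, 616 and 619 CPM and had the same shape, with overlapping intervals at E18.5 (610 to 623) and P8 (613 to 625).

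The Ifitm genes each took another course. Ifitm3 measured 407, 344, 1474 and 1402 CPM over the 4 ages, lower at E15.5 (interval 340 to 348) than at E13.5 (378 to 438), and then higher by a step at E18.5. Ifitm2 was high throughout, at 997, 810, 1041 and 1379 CPM. Ifitm1 was low, at 21.1, 3.94, 10.2 and 1.94 CPM. Ly6c2 had 0 UMIs at E13.5, which allows up to 2.05 CPM, and 0.0210, 0.449 and 0.113 CPM afterwards, and was near 0 in sorted ECs.

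**Figure D1:**
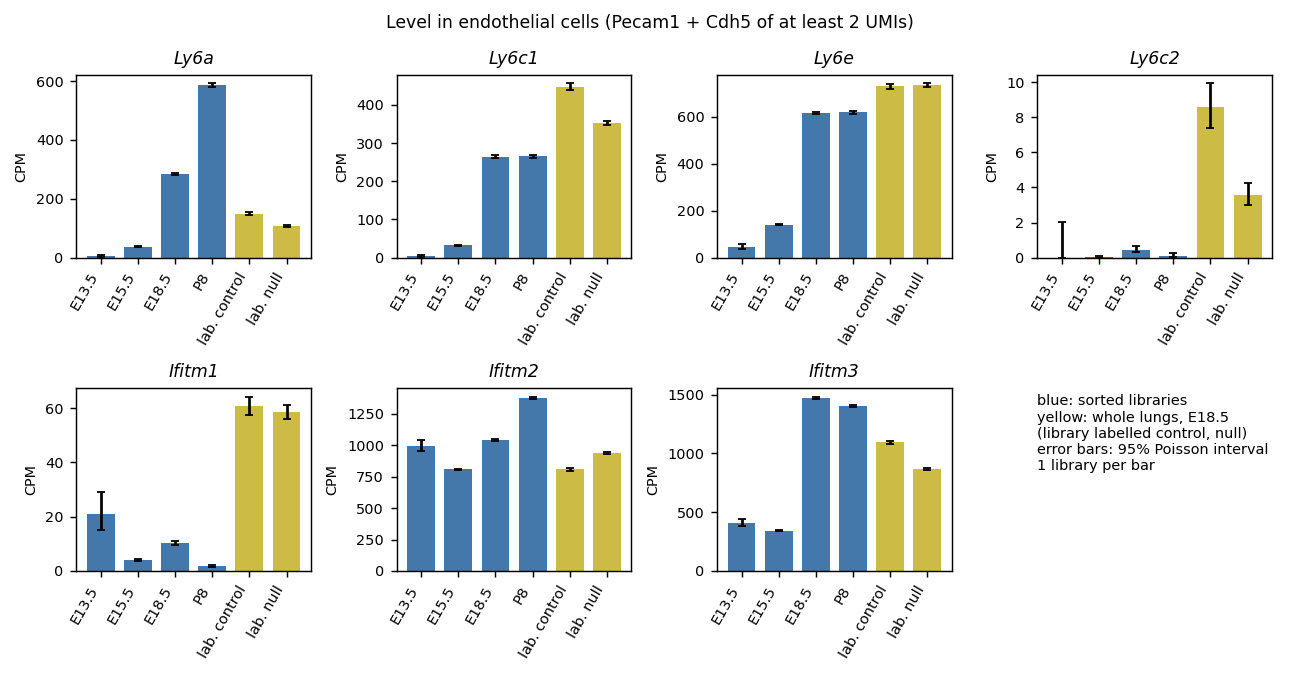
Level of each member in ECs, in CPM on a linear axis that starts at 0, for the 4 sorted libraries (blue) and the whole-lung libraries labelled control and null (yellow), 1 library per bar, with error bars for the 95% Poisson interval. Ly6a climbs to 587 CPM at P8, Ly6c1 and Ly6e level off from E18.5, and Ly6c2 and Ifitm1 are higher in whole-lung than in sorted ECs. The whole-lung ECs carried 957 and 1195 CPM of 8 mesenchymal markers and 760 and 450 CPM of 8 immune markers. Sorted E18.5 ECs had 180 and 54.9 CPM of these 2 sets. The part of such RNA in the Ly6c2 and Ifitm1 levels was not tested.

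The share of cells followed the levels. After each cell was thinned to 2000 UMIs, so that depth was equal, Ly6a was detected in 0.481%, 5.47%, 29.1% and 52.7% of ECs over the 4 ages. Among cells without Pecam1 or Cdh5 of the same libraries it was detected in 0.0245%, 0.752%, 4.90% and 5.00%, with median depths of 7197, 7608, 8412 and 6483 UMIs against 7087, 8610, 5682 and 5667 in ECs. These other cells were few at the later ages. Of 9542 cells kept at E18.5, 9119 were ECs and 126 had 1 UMI of Pecam1 and Cdh5 together. Of 8451 kept at P8, 8259 were ECs and 97 had 1 UMI. Shares in the other cells at these ages are thus less firm than those in ECs. At E13.5 the share in ECs came from 1 of 208 cells (exact interval 0.0122% to 2.65%) and its interval included the share in those other cells. The levels at that age stood apart, since the other cells had 0.101 CPM of Ly6a (10 UMIs, interval 0.0486 to 0.186). Ly6c1 was detected in 0.481%, 5.63%, 34% and 36% of ECs, against 0%, 0.161%, 3.5% and 5% of the other cells, where 0 of 12240 thinned cells at E13.5 allows a share of cells with a UMI of up to 0.0301% by the exact interval, and the same cells held 7 UMIs before thinning. Ly6e was detected in 7.21%, 22.4%, 63.9% and 65.8% of ECs and in 5.13%, 1.88%, 5.59% and 16.2% of the other cells. At E13.5 the interval of the Ly6e share in ECs (4.09% to 11.6%) included that of the other cells, so the share alone did not stand above background there, while the levels stood apart, at 45.5 CPM (36.2 to 56.5) in ECs and 26.3 CPM (25.3 to 27.3) in the other cells. Ifitm3 was found in 62.0%, 47.7%, 87.7% and 87.6% of ECs and in 17.5%, 18.5%, 55.2% and 61.2% of the other cells, and Ifitm2 in 78.9% to 90.4% against 69.1% to 81%. Ifitm1 was found in a smaller share of ECs (0.273% to 1.92%) than of other cells (1.24% to 28%) at every age. Those other cells had 5020 to 13584 CPM of mesenchymal markers, and Ifitm1 was high in the mesenchymal class of whole lungs. The comparison therefore cannot tell whether the Ifitm1 of ECs is background.

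Between neighbouring ages, a gene was counted as past 2-fold when its log2 ratio, with 0.5 CPM added, was beyond 1 in size and its level was at least 50 CPM in 1 of the libraries. From E13.5 to E15.5, 3 members reached that level and 1, Ly6e, was past 2-fold (log2 ratio 1.61), where 5.12% of 3319 genes were. From E15.5 to E18.5, 4 of 5 members were past 2-fold and all 4 were higher, namely Ly6a, Ly6c1, Ly6e and Ifitm3 (log2 ratio 2.10), where 14.5% of 3588 genes were past 2-fold. Ifitm2 had a log2 ratio of 0.36. From E18.5 to P8, 1 of 5 members was past 2-fold, Ly6a with 1.04, where 8.89% of 3680 genes were. That value stood at the limit, and was 0.86 when CPM were averaged over cells, 0.98 without cycling cells and 0.86 after thinning.

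A minimum in either library picks genes through their higher group, so the counts were repeated in other choices of genes. The first was the 9773 genes with a mean of at least 5 CPM over the 4 sorted libraries, which 6 members passed and Ly6c2 did not. That mean still holds the libraries compared, so a gene that is low early can enter through the later ages, and its counts are no support for a direction. From E13.5 to E15.5, 3 of 6 were 2-fold higher and 1 was lower, where 3.13% of all genes were higher and 4% lower. Ly6a (2.95) and Ly6c1 (2.88) joined Ly6e, although their E13.5 levels rest on 8 and 7 UMIs. The 1 lower member was Ifitm1 (-2.28), and its value was -1.42 without ECs holding 5 or more collagen UMIs and -0.69 after thinning. From E15.5 to E18.5, 5 of 6 were 2-fold higher, where 8.44% of all genes were higher and 5% lower, and the median log2 ratio was 2.12 against 0.17 for all genes. Ifitm1 (3.94 and 10.2 CPM) is among the 5 at a low level, and whether its UMIs in sorted ECs are background is not known. From E18.5 to P8, 1 was higher and 1, Ifitm1 (-2.13), lower, where 3.63% of all genes were higher and 4.85% lower, and the median was 0.01 for the members as for all genes. The second choice took the 9664 genes of at least 5 CPM at E13.5, an age outside both later steps, which kept Ly6e, Ifitm1, Ifitm2 and Ifitm3. From E15.5 to E18.5, 3 of these 4 were 2-fold higher, where 6.23% of all genes were, namely Ly6e, Ifitm3 and again Ifitm1, which passed this choice at 21.1 CPM in E13.5 ECs that carried mesenchymal markers. Without Ifitm1 the members higher were Ly6e and Ifitm3, and Ifitm2 was short of 2-fold. In that choice none was higher from E18.5 to P8 and Ifitm1 was lower, where 2.79% of all genes were higher and 5.24% lower.

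Genes known to be induced by interferon were also higher at E18.5 than at E15.5. Of 39 listed interferon-stimulated genes, 14 were at 5 CPM or more in the E13.5 library, and 13 of these were 2-fold higher at E18.5 than at E15.5 and none lower, with a median log2 ratio of 1.86 against 0.12 for all genes, of which 6.23% were higher and 6.11% lower. The 1 short of 2-fold was Eif2ak2, a kinase that senses viral RNA and stops translation, named after its value was seen. By the mean of 5 CPM, which admits genes through the later ages, 26 entered and 25 were higher (median 2.39), beside 8.44% of all genes. By that mean, 6 were higher and 1 lower from E13.5 to E15.5 (median 0.46), and 4 were higher and 5 lower from E18.5 to P8 (median -0.35), beside 3.13% of all genes higher and 4% lower in the first of these intervals and 3.63% higher and 4.85% lower in the second. Rtp4, a chaperone of receptors that restrains viruses, measured 1.66, 55.4 and 23.9 CPM from E15.5 to P8. Isg15, a ubiquitin-like modifier, measured 4.03, 65.7 and 35.5 CPM, and Irf9, a subunit of the transcription factor that type I interferon activates, 9.21, 63.5 and 23.7 CPM. These 3 were lower at P8 than at E18.5. They were named for their ratios from E15.5 to E18.5 and reached 50 CPM at E18.5 only, so their lower P8 level supports no direction. Of the 14 genes of 5 CPM at E13.5, 2 were higher and 1 lower from E18.5 to P8 (median -0.35). Of all genes in that choice, 2.79% were higher and 5.24% lower. Ly6a did not share the course of Rtp4, Isg15 and Irf9. Neither did Irf1, another transcription factor of the pathway, at 57.1 and 199 CPM, or Bst2, which tethers budding viruses, at 378 and 411 CPM.

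The same genes were measured in whole-lung ECs of the same age, which were prepared without the sort. These ECs carried 760 and 450 CPM of 8 immune markers in the libraries labelled control and null. Sorted ECs had 57.1 CPM of them at E15.5 and 54.9 CPM at E18.5. The part of immune RNA in the whole-lung values was not tested. Isg15 was at 38.7 and 20.0 CPM in ECs of the libraries labelled control and null, Rtp4 at 51.2 and 29.9 CPM, and Bst2 at 367 and 257 CPM. All 6 values were above the E15.5 sorted level of their gene and below the E18.5 sorted level. Over the 26 genes of the list, both whole-lung values were above the E15.5 level for 26, below the E18.5 level for 20 and above it for 4, and 2 had 1 value on each side. Of all 9773 genes of that mean, both values were above the E15.5 level for 55.5%, below the E18.5 level for 45.9% and above it for 38.3%. The 11 receptor and signalling genes of that mean were also all above the E15.5 level, so that this position was not particular to the interferon-stimulated genes.

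The receptors and signalling genes had median log2 ratios of 0.12, 0.73 and 0.22 over the 3 intervals. Of 12 listed, 11 had a mean of at least 5 CPM, and 1, 2 and 2 were 2-fold higher with none lower, which is 9.09%, 18.2% and 18.2% beside 3.13%, 8.44% and 3.63% of all genes. From E15.5 to E18.5 the 2 were Socs3, an inhibitor of cytokine signalling (41.5 and 276 CPM), and Il10rb, a receptor chain shared by several cytokines (41.7 and 97.3 CPM). The interferon receptor chains Ifnar1 and Ifngr1 measured 52.0 and 68.5 CPM at E15.5 and 69.1 and 118 CPM at E18.5. Of 31 other listed Ly6/uPAR genes, 6 had a mean of at least 5 CPM. Gpihbp1, which carries lipoprotein lipase across capillary ECs and lies on the same chromosome at chr15:75596628-75599481, measured 19.4, 142, 440 and 963 CPM over the 4 ages. Plaur, the urokinase receptor, went from 13.5 to 90.0 CPM between E15.5 and E18.5, and Cd59a, an inhibitor of complement, from 85.2 to 37.7 CPM between E18.5 and P8. Of 4 other Ifitm genes only Ifitm10 had a mean of at least 5 CPM, at 3.33, 2.35, 7.50 and 17.9 CPM.

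**Figure D2:**
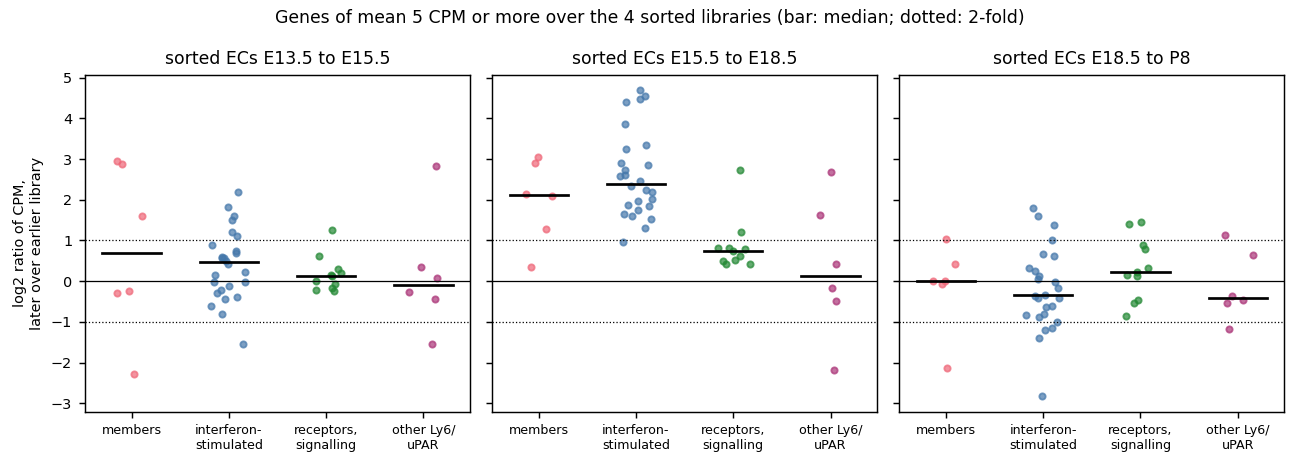
Log2 ratio of CPM in ECs, later over earlier sorted library, for each gene with a mean of at least 5 CPM in the members, the interferon-stimulated genes, the interferon receptors and signalling genes and the other Ly6/uPAR genes, 1 point per gene, with a bar at the median and dotted lines at 2-fold. From E15.5 to E18.5 the medians of the members (2.12) and of the interferon-stimulated genes (2.39) lie above the 2-fold line, and the median of the other Ly6/uPAR genes (0.14) near 0. The median of all genes of that mean, not drawn, was 0.17. The mean holds the ages compared, so the points support no direction. Among genes of 5 CPM at E13.5 the medians were 1.68 for 4 members and 1.86 for 14 interferon-stimulated genes.

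ECs were then split by marker genes. Eln (at least 10 UMIs), which encodes elastin and is high in larger arteries, Gja4 (at least 2 UMIs), an arterial connexin, Gpihbp1 (at least 2), a marker of general capillaries, and Car4 (at least 2), a marker of alveolar capillaries also called aerocytes, set 4 gates. The gates overlapped, since 57.8% of P8 ECs passed both the Gpihbp1 and the Gja4 gate. The Car4 gate held 0, 10, 852 and 1783 sorted ECs at the 4 ages and the Eln gate 47, 1513, 803 and 398. The mix of sorted ECs thus changed with age. The Eln gate made up 22.4%, 16%, 8.81% and 4.82% of them and the Gpihbp1 gate 1.9%, 27.8%, 46.1% and 73.6%. The part of this mix in the levels over age was not tested. A gate was counted for a member when its ratio to the other ECs was past 2-fold in the same direction at E18.5 and P8. A cell with more UMIs passes a gate more easily, and thinning before the gates were read left each count of members as it was.

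The 3 Ly6 genes were lower in Eln-gated ECs. Ly6a measured 63.6 CPM in the gate and 317 CPM outside it at E18.5, while the P8 values were 237 and 610 CPM. Ly6c1 was at 44.1 and 295 CPM in the E18.5 library and at 120 and 275 CPM in the P8 library. For Ly6e the E18.5 values were 197 and 676 CPM, and those of P8 287 and 641 CPM. These 3 of 5 members passed, all lower, with log2 ratios of -2.73 to -1.16, where 8.67% of 3320 genes passed. At E15.5, which the count did not use, the ratios were -2.15 for Ly6a, -2.11 for Ly6c1 and -1.42 for Ly6e. The Eln gate of whole-lung ECs gave the same order. Ly6a was at 56.4 CPM inside and 167 outside in the library labelled control, and at 53.0 and 120 CPM in the library labelled null. That gate held another mix of cells. Of its 202 and 407 ECs, 83 and 249 also passed the Gja4 gate and 106 and 190 the Gpihbp1 gate. In the sorted E18.5 library 741 and 67 of 803 did. The part of this mix, and of mesenchymal RNA, in the whole-lung Ly6a levels was not tested.

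The Ifitm genes were not lower together in Eln-gated ECs. Ifitm2 had log2 ratios of 0.46, 0.16 and 0.62 from E15.5 to P8. Ifitm3 was higher in the gate at E15.5 (430 and 329 CPM) and at P8 (2270 and 1345 CPM), and lower at E18.5 (960 and 1547 CPM). Ifitm1, which was below 50 CPM and not counted, measured 23.3 CPM inside and 8.34 outside at E18.5 (log2 ratio 1.43), while the P8 values were 6.01 and 1.68 CPM (1.58). The mean of the 2 ratios was 0.40 without ECs holding 5 or more UMIs of 3 collagen genes. In whole lungs Ifitm1 measured 238 CPM inside the Eln gate and 27.0 outside in the library labelled control, and 226 and 14.5 CPM in the library labelled null. The part of mesenchymal RNA in the whole-lung values was not tested.

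Ly6a was highest in Car4-gated ECs. It measured 855 CPM in the gate (interval 834 to 877) and 209 CPM outside (206 to 213) at E18.5, and 961 CPM (947 to 974) and 397 CPM (391 to 403) in the P8 library. After thinning, 65.0% of gated and 25.4% of other ECs held a UMI of Ly6a at E18.5, and 75.9% and 46.2% at P8. Ly6a was the 1 member of 5 that passed, with log2 ratios of 2.03 and 1.27, where 3.25% of 3233 genes passed. Outside the gate its level still went from 209 CPM at E18.5 to 397 CPM at P8, while the gate grew from 9.34% to 21.6% of ECs. The 57 and 204 Car4-gated ECs of the libraries labelled control and null measured 382 and 231 CPM, against 140 and 95.7 CPM in their other ECs. In and outside the gate Ly6c1 was at 464 and 237 CPM in the E18.5 library and at 342 and 227 CPM in the P8 library, which was short of 2-fold. In whole-lung ECs Ly6c1 was not higher in the Car4 gate, at 431 and 448 CPM in the library labelled control and 339 and 354 CPM in the library labelled null. Ly6e had log2 ratios of 0.67 and 0.44 in the sorted libraries.

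Ifitm2 and Ifitm3 were lower in the Car4 gate, short of 2-fold, with log2 ratios of -0.49 and -0.50 for Ifitm2 and of -0.24 and -0.74 for Ifitm3. Cells that passed the Car4 gate and no other, a group chosen after the values were seen, were set beside ECs of no gate. At P8 these 223 ECs had 1881 CPM of Ly6a (interval 1805 to 1959) and 319 CPM of Ifitm3 (288 to 352), and the 333 ECs that passed no gate had 412 CPM of Ly6a and 1056 CPM of Ifitm3. At E18.5 the 265 ECs with Car4 alone had 1297 CPM of Ly6a and 810 CPM of Ifitm3, and the 791 ECs of no gate 307 and 1246 CPM. In this group Ly6a was higher and Ifitm3 lower than in ECs of no gate at both ages.

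In the sorted libraries the Gja4 and Gpihbp1 gates held no member past 2-fold at both E18.5 and P8, where 0.688% of 3199 genes and 3.15% of 3266 genes were. In the Gja4 gate Ly6a had log2 ratios of -0.87 and -0.37 at E18.5 and P8, but 0.67 at E15.5 (41.6 and 25.9 CPM), and 0.53 and -0.12 in the whole lungs labelled control and null. Ifitm2 was higher in the Gja4 gate from E15.5 to P8, with 0.51, 0.54 and 0.43. In the Gpihbp1 gate Ly6c1 was the member with the largest ratio at E18.5, 339 CPM inside and 183 outside (0.89), and its P8 values were 278 and 213 CPM (0.38). In whole-lung ECs the same gate had 515 and 205 CPM of Ly6c1 in the library labelled control (log2 ratio 1.33) and 424 and 152 CPM in the library labelled null (1.48). The share of all genes past 2-fold was not computed for the whole-lung gates. Ifitm2 was lower in this gate at every age from E15.5, with log2 ratios of -0.48, -0.38 and -0.50.

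**Figure D3:**
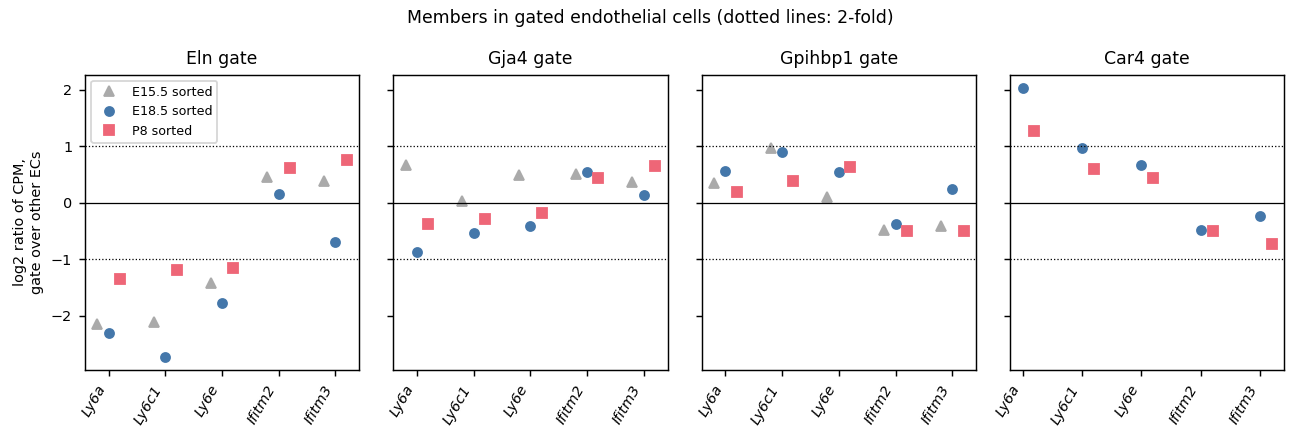
Log2 ratio of CPM in gated over other ECs for 5 members, by gate, in the sorted E15.5 (triangles), E18.5 (circles) and P8 (squares) libraries, with dotted lines at 2-fold. Ly6a, Ly6c1 and Ly6e lie below the lower line in the Eln gate, Ly6a lies above the upper line in the Car4 gate, and no member is past 2-fold in the Gja4 or Gpihbp1 gate of these libraries. The 10 Car4-gated cells at E15.5 are not drawn.

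ECs with a UMI of the cycling genes Mki67 or Top2a had less Ifitm3 at every age. Ifitm3 measured 278, 282, 1226 and 1195 CPM in them and 550, 391, 1521 and 1439 CPM in the other ECs at the 4 ages. Ifitm2 had the same order at every age, as in 1108 and 1427 CPM at P8. Ly6e did not, at 676 CPM in cycling and 609 CPM in other ECs at P8 and 589 and 621 CPM at E18.5. Cycling ECs were deeper, with a median of 10302 UMIs against 5491 at P8, and the part of depth in these levels was not tested.

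Within cells, the members formed weak pairs that varied with age. Over the 8978 thinned ECs of E18.5, UMIs of Ly6a and Ly6c1 had a Spearman correlation of 0.241, and 1307 cells held both, which is 50.1% of cells with Ly6a and 42.8% of cells with Ly6c1. Ly6c1 with Ly6e gave 0.242, Ly6a with Ly6e 0.228, Ifitm2 with Ifitm3 0.101 and Ly6a with Ifitm2 -0.0863. At P8 the highest value was that of Ifitm2 with Ifitm3, 0.233, beside 0.207 for Ly6a with Ly6c1, 0.141 for Ly6a with Ly6e and 0.0969 for Ly6c1 with Ly6e. At E15.5 Ly6a with Ly6c1 and Ifitm2 with Ifitm3 both gave 0.104. These weak correlations share cells, library and depth and are given as a description. Ly6a was spread unevenly among ECs, with a variance of 2.97 times its mean at E18.5 and up to 18 UMIs in a thinned cell while the median cell held 0.

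In whole E18.5 lungs, each member was set against the classes of cells. Clusters were classed by broad markers into endothelial (1750 cells in the library labelled control and 2641 in the library labelled null), epithelial (771 and 540), mesenchymal (4684 and 4849) and immune (790 and 695) cells, and 273 and 432 cells in mixed clusters were left out. The classes held different clusters in the libraries labelled control and null. Clusters with the arterial genes Gja4 or Dkk2 among their leading genes made up 25.1% and 36.1% of the endothelial class, the cluster led by Car4 10.7% and 13%, and an AT1-like cluster 27.5% of the epithelial class in the library labelled control, while none was named in the library labelled null. In the endothelial class Ly6a measured 182 CPM in the library labelled control and 124 CPM in the library labelled null. In the mesenchymal class, which had a like median depth (7082 and 8246 UMIs against 7432 and 8307), it measured 1.56 and 3.52 CPM. Ly6a was detected in 23.8% and 19.4% of thinned endothelial cells and in 0.193% and 0.311% of mesenchymal cells. Ly6c1 measured 555 and 413 CPM in the endothelial class, 22.8 and 33.2 in the epithelial, 3.29 and 4.77 in the mesenchymal and 22.6 and 6.14 in the immune class. Both genes were thus mainly endothelial in these lungs.

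Ly6e was shared by endothelial and immune cells. It measured 838 and 836 CPM in the endothelial class, 418 and 413 in the immune, 81.9 and 98.3 in the epithelial and 13.6 and 16.8 in the mesenchymal class. Ly6c2 belonged to immune cells, at 89.2 and 92.7 CPM, against 0.395 and 0.266 CPM in the endothelial class, which is 6 and 7 UMIs. The near-identical Ly6c1 stood the other way round, at 555 CPM in endothelial and 22.6 CPM in immune cells of the library labelled control. ECs chosen by Pecam1 and Cdh5 alone had 8.58 and 3.57 CPM of Ly6c2, and these cells carried 760 and 450 CPM of 8 immune markers.

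The Ifitm genes split by class as well. Ifitm1 was mesenchymal, at 623 and 582 CPM, against 25.1 and 18.7 CPM in the endothelial class, 49.3 and 39.0 in the epithelial and 11.7 and 13.6 in the immune class. Ifitm2 was high in mesenchymal (1002 and 1095 CPM) and endothelial cells (892 and 997 CPM) and low in epithelial (214 and 209 CPM) and immune cells (174 and 156 CPM). Ifitm3 measured 1254 and 946 CPM in the endothelial class, 689 and 623 in the mesenchymal, 265 and 179 in the immune and 123 and 138 in the epithelial class. The order of the 4 classes for Ifitm3 was the same in both libraries.

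Against the epithelial class, 5 of 5 members of at least 50 CPM were past 2-fold and higher in endothelial cells in both libraries, where 36.5% of 3672 genes were past 2-fold. The members below that level went the other way, Ifitm1 with log2 ratios of -0.96 and -1.04 and Ly6c2 with -2.05 and -3.39. Against the mesenchymal class, Ly6a, Ly6c1 and Ly6e were higher and Ifitm1 lower, 4 of 6 members, where 30.4% of 3719 genes were past 2-fold. The log2 ratios were 4.96 to 7.19 for the 3 Ly6 genes and -4.61 and -4.92 for Ifitm1. Against the immune class, 5 were higher and Ly6c2 lower (-6.65 and -6.93), 6 of 6, where 37.8% of 3872 genes were past 2-fold. Ly6e stood at the limit in that comparison (1.00 and 1.02). Ly6a and Ly6c1, and against the mesenchymal class Ly6e and Ifitm1 as well, reached 50 CPM only through the class where they were high, and Ly6c2 only through the immune class. The minimum thus fixes part of these counts, which describe the members and support no direction. The values adjusted by the authors with SoupX, which removes an estimate of free RNA, gave the same members, and brought Ifitm1 in the endothelial class to 10.8 and 1.48 CPM, Ifitm2 in the immune class to 21.8 and 30.4 CPM, and Ly6e in the epithelial class to 3.36 and 47.5 CPM. In the epithelial class these values were 0 and 25.7 CPM for Ifitm2 and 0 and 47.2 CPM for Ifitm3, and in the immune class Ifitm3 was at 81.6 and 106 CPM.

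**Figure D4:**
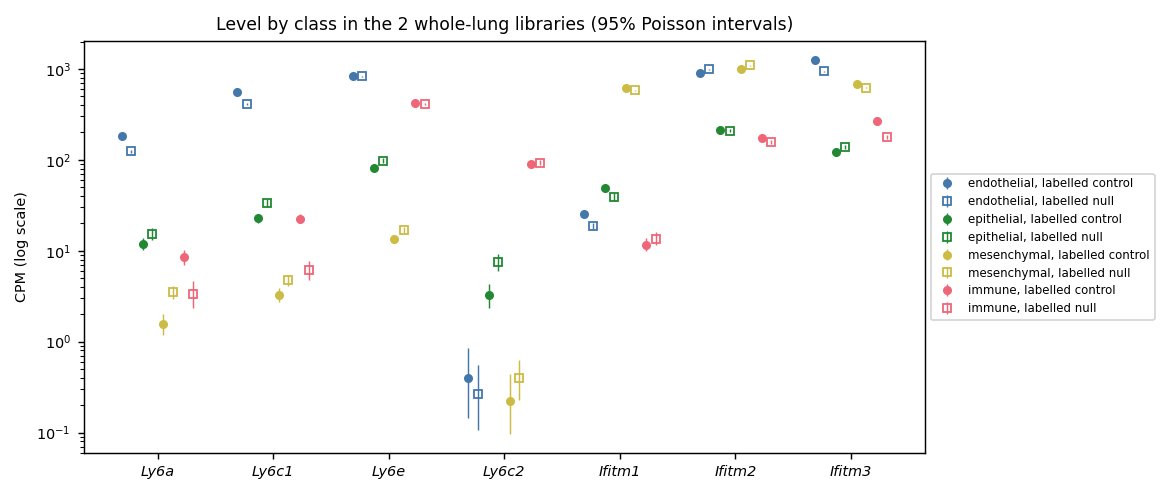
Level of each member in CPM on a log axis, by class of cells in whole E18.5 lungs, for the libraries labelled control (filled circles) and null (open squares), with 95% Poisson intervals. Ly6a and Ly6c1 are highest in endothelial cells, Ly6c2 in immune cells (89.2 and 92.7 CPM) and Ifitm1 in mesenchymal cells (623 and 582 CPM).

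Clusters showed where within a class a gene was high. Ifitm1 measured 1299 and 969 CPM in alveolar fibroblast-like cells of the libraries labelled control and null, where it was detected in 82.9% and 75.5% of thinned cells. It measured 433 and 410 CPM in pericyte-like, 212 and 251 in smooth muscle-like and 68.9 and 187 CPM in myofibroblast-like cells, which were 1 cluster and 2 clusters (53.9 and 669 CPM), and 567 CPM in the adventitial fibroblast-like cluster, which was named in the library labelled null only. Unnamed clusters made up 42.8% and 46.5% of the mesenchymal class, and ranged from 28.3 to 1354 CPM of Ifitm1 in the library labelled control and from 39.1 to 1275 CPM in the library labelled null. The highest in each had Cxcl14, Osr2 and Stc2 among its leading genes and was above the alveolar fibroblast-like cluster in the library labelled null (interval 1247 to 1303, against 951 to 987), while in the library labelled control the intervals overlapped (1309 to 1400, and 1278 to 1321). Ly6c2 measured 110 CPM in the neutrophil-like cluster of the library labelled null and 12.3 and 0 CPM in macrophage-like cells, where 0 UMIs allow up to 2.34 CPM. The neutrophil-like cluster had the neutrophil markers S100a9 and Retnlg among its leading genes, but also Lyz2, Mpeg1 and Klra2, which are not in that marker list. Its name is therefore tentative. Of the unnamed immune clusters, 498 cells led by Retnlg, Chil3 and Mmp8 in the library labelled control had 108 CPM of Ly6c2. They shared Retnlg, Sirpb1c and Klra2 with the leading genes of the neutrophil-like cluster. Another 165 cells of that library, with Bub1b, Ear1 and Ear2 among their leading genes, had 90.1 CPM, and 116 cells of the library labelled null, led by the antigen presentation genes H2-Ab1 and H2-Aa, had 103 CPM. These last clusters were deep, with medians of 25929 and 24206 UMIs, and carried 1664 and 433 CPM of 8 endothelial markers. AT2-like epithelial cells had 6.53 and 12.2 CPM of Ly6c2 beside 75.6 and 829 CPM of 8 immune markers, and the SoupX-adjusted level of the epithelial class was 0 and 6.84 CPM. Ly6e was at 442 CPM in neutrophil-like and at 205 and 138 CPM in macrophage-like cells, and at 452, 453 and 496 CPM in the 3 unnamed clusters in the order given. Among the named clusters outside the endothelium, Ly6a and Ly6c1 were highest in ciliated-like cells, Ly6a at 34.5 and 47.9 CPM and Ly6c1 at 52.9 and 110 CPM. Those values were from 108 and 101 cells, which were deep (medians of 26182 and 24035 UMIs) and carried 104 and 374 CPM of the endothelial markers.

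**Figure D5:**
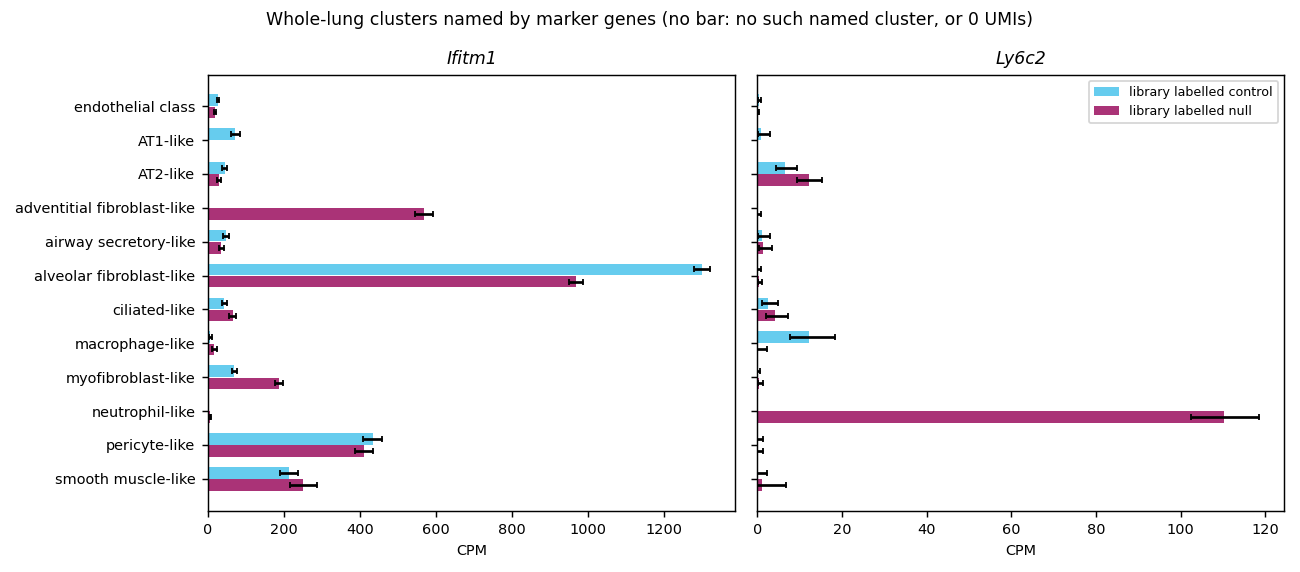
Level of Ifitm1 (left) and Ly6c2 (right) in CPM on linear axes from 0, in the endothelial class and in whole-lung clusters named by marker genes, for the libraries labelled control and null, with 95% Poisson intervals. Among these named clusters Ifitm1 is highest in alveolar fibroblast-like cells (1299 and 969 CPM) and Ly6c2 in the neutrophil-like cluster (110 CPM), which was named in the library labelled null only. That name is tentative, and unnamed immune clusters are not drawn.

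Between the whole-lung libraries no member of at least 50 CPM was past 2-fold in any class. Members of that level numbered 5 in the endothelial, 3 in the epithelial, 3 in the mesenchymal and 4 in the immune class. Of all genes of that level, 0.451% of 3325, 1.2% of 2828, 0.505% of 3168 and 2.21% of 3117 were past 2-fold, in the same order. Below it, the ratio, labelled null over labelled control, was past 2-fold for Ly6c1 (-1.80) and Ly6a (-1.22) in immune and Ly6c2 (1.11) in epithelial cells. In endothelial cells the log2 ratio, labelled null over labelled control, was -0.55 for Ly6a, -0.42 for Ly6c1, -0.41 for Ifitm3, -0.00 for Ly6e and 0.16 for Ifitm2. Among the ratios of the 3325 genes (median 0.0119) these stood at percentiles 1.05, 2.05, 2.26, 45.4 and 88.1, in the same order. These directions follow the labels and turn if the labels are exchanged. The 8 interferon-stimulated genes of at least 50 CPM had a median of -0.41 with none past 2-fold. With SoupX-adjusted values the endothelial levels were 275 and 143 CPM for Ly6a, 839 and 478 CPM for Ly6c1 and 1549 and 1002 CPM for Ifitm3, still short of 2-fold, while 3.34% of 3380 genes were past it. In immune cells Ifitm3 had a log2 ratio of -0.57, and its direction turned with SoupX-adjusted values (81.6 and 106 CPM). With 1 library each and the labels in doubt, neither a cause nor a genotype can be tied to these values.

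ECs of the same age differed between the sorted and the whole-lung libraries. Ly6a measured 285 CPM in sorted E18.5 ECs and 149 and 106 CPM in whole-lung ECs of the libraries labelled control and null, and Ly6c1 264 CPM against 448 and 353 CPM. The order of the sorted against the whole-lung ECs was thus opposite for these neighbours. The Car4 gate held 9.34% of sorted ECs and 2.82% and 6.71% of whole-lung ECs, and the Gpihbp1 gate 46.1% against 77.1% and 69.9%. Their part in the levels was not tested.

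Over 23 populations of at least 50 cells, the genes most like a member were found by Pearson correlation of log2(CPM + 1) among 5937 genes. The populations were the 4 gates of the sorted libraries at each age and the sorted ECs of no gate, where these had enough cells, and the 4 classes of each whole lung. The E13.5 library gave the Gja4 gate only, and the Car4 gate entered at E18.5 and P8. Scn3b was most like both Ly6a (0.969) and Ly6c1 (0.970), and these members had 0.948 with each other. Ankrd33b (0.964) and Tnfsf10 (0.960) followed for Ly6a, and Cyp4b1 (0.955) and Cd36 (0.95), a fatty acid transporter, for Ly6c1. The genes most like Ly6e were Stx3 (0.95), Zc3hav1 (0.949), which encodes an antiviral zinc finger protein, and Pxn (0.935). Plbd1 (0.989), Ifi211 (0.984) and AB124611 (0.981) were most like Ly6c2. Ifitm1 was followed by Col13a1 (0.962), Tbx5 (0.959) and Pdgfra (0.952), a receptor that marks fibroblasts. Ifitm2 was followed by Ttc28 (0.968), Tcaf1 (0.968) and Spin1 (0.963), and Ifitm3 by Hook3 (0.95), Sash1 (0.932) and Thbd (0.929). Ifitm2 and Ifitm3 had 0.818 with each other, Ifitm1 had -0.217 with Ifitm3, and Ly6c2 had -0.270 with Ly6c1. The populations share libraries and cells, so these values describe the pattern only.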

How the data were processed

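The authors processed the droplet libraries with Cell Ranger 3.1 on mm10 and Seurat 3.2.2, per the labels, and deposited UMI counts of each gene in each cell. For the whole lungs they also deposited expected counts adjusted with SoupX, used here as an alternative. Depth sets the printed intervals (exact Poisson and Clopper-Pearson, 95%).

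Cells with at least 700 genes and 0.5% to 10% mitochondrial UMIs were kept. Members, gates and gene lists were chosen with earlier results of these data known. The 7 members are named throughout, with up to 3 genes of each list that had the largest ratios at 50 CPM or more, and the 3 genes most like each member. Ifnar1, Ifngr1 and Ifitm10, cycling cells, the Car4 gate alone and the mean of 5 CPM were chosen after the values were seen. Names of 2 immune clusters were withdrawn after their leading genes were read, and the choice of genes by E13.5 was added then. Whole-lung clusters (scanpy 1.11.5, leidenalg 0.10.2, 3000 variable genes, 20 components, 20 neighbours, resolution 0.8) were classed and named by fixed markers. Doublets (expected rate 8%) were left out in 1 alternative. For sorted E18.5 and P8 no doublet was called automatically, so the highest scores at that rate were used. Ratios were tested on simulated counts with known changes, which hold counting error only and no difference between libraries. Promoters are from RefSeq (GRCm38.p6), aligned with Biopython 1.88. Numbers came from Python 3.11.15, numpy 2.4.6, scipy 1.17.1 and pandas 2.3.3.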

Additional observations from a re-analysis of the deposited data

Results flagged for a closer look

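Ifitm3 took opposite directions at E18.5 and P8 in the Eln and Gpihbp1 gates of the sorted libraries. In the Eln gate its log2 ratio to the other ECs was -0.69 at E18.5 (960 and 1547 CPM) and 0.75 at P8 (2270 and 1345 CPM). In the Gpihbp1 gate it was 0.24 at E18.5 (1591 and 1349 CPM) and -0.50 at P8 (1300 and 1839 CPM). Each age is 1 library, and the difference between the ages was not tested. The Eln gate held 803 ECs at E18.5 and 398 at P8. In the whole E18.5 lungs the Eln gate also had less Ifitm3 inside (832 and 1144 CPM in the library labelled control, 754 and 898 CPM in the library labelled null). The whole-lung gate held another mix of cells than the sorted one, and the part of this mix in these values was not tested. The Gpihbp1 gate had 1125 and 983 CPM in the library labelled control and 868 and 869 CPM in the library labelled null.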

How the results depend on the processing

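Of 160 recomputed counts of members past 2-fold, 151 were within 1.5 times the reported count, 9 moved and 0 reversed. Of 910 recomputed log2 ratios of single members, 644 moved by less than the counting error, 266 by more, and none changed sign after being past 2-fold. With no minimum level the count was 4 from E13.5 to E15.5 (Ly6a, Ly6c1 and Ifitm1 joined), 2 from E18.5 to P8 (Ifitm1 joined), 1 between whole lungs in epithelial cells (Ly6c2) and 2 in immune cells (Ly6a and Ly6c1). From E18.5 to P8 it was 0, without Ly6a, with the mean of per-cell CPM, with cycling ECs left out and with cells thinned to 2000 UMIs. In the Car4 gate it was 2, with Ly6c1, at 1.5-fold and with exclusive gates. Against the immune class Ly6e was lost with a pseudocount of 5 CPM and with shared barcodes left out. Over all genes, no minimum level raised the number past 2-fold from 170 to 2272, from 520 to 2049 and from 327 to 1638 over the 3 intervals. Thinning moved it from 170 to 308 for the first interval and from 103 to 30 in the Gpihbp1 gate. Between whole lungs, SoupX-adjusted values moved it from 15 to 113 in the endothelial, from 34 to 225 in the epithelial, from 16 to 73 in the mesenchymal and from 69 to 140 in the immune class. The causes were not tested, except that a minimum level by its construction removes low genes. With genes of 5 CPM at E13.5 in place of 50 CPM in 1 of the ages compared, the counts were 3 from E15.5 to E18.5 (Ifitm1 joined, and Ly6a and Ly6c1 were below 5 CPM at E13.5) and 1 from E18.5 to P8 (Ifitm1 in place of Ly6a). This choice, leaving out shared barcodes, and requiring 2 UMIs of Pecam1 and Cdh5 in the endothelial class, were added after the data were seen.

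No paired analysis was possible because each group had 1 library. Leaving out a replicate was not run, since no group had a second library. At E13.5 the 210 ECs held 38 UMIs or fewer of Ly6a, Ly6c1, Ly6c2 and Ifitm1 each.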
